A study of Homo sapiens and Homo sapiens
Mus musculus with 19 samples.

Results

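Fast synaptic transmission relies on ion channels that open when glutamate, GABA, glycine or acetylcholine binds to them. The genes described here encode the subunits of these channels together with the G-protein-coupled glutamate receptors and were picked out by their gene symbols. They numbered 66 of the 57820 human genes in the count table and comprised 4 AMPA, 5 kainate, 2 delta and 7 NMDA receptor genes, 8 metabotropic glutamate receptor genes, 19 GABA-A receptor genes, 5 glycine receptor genes, and 11 neuronal and 5 muscle nicotinic receptor genes. One of them, GLRA4, is annotated as a pseudogene in humans.

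RNA had been sequenced from the MYCN-amplified human neuroblastoma line SK-N-Be2c, either wild-type (Control) or carrying a CRISPR/Cas9 knockout of the transcription factor TWIST1 (sgTWIST1), in culture and as tumors grown in the adrenal gland of athymic Swiss nude mice, which have no mature T cells. There were 3 samples of Control cells, 3 of sgTWIST1 cells, 4 Control tumors and 4 sgTWIST1 tumors. The labels name the cell samples as clones of this single line, and 5 of the 6 were sequenced in 2 batches whose counts were summed here. Tumors were taken at 1000 mm3. The paper reports that sgTWIST1 tumors grew with a delay, so they reached this volume later than Control tumors. Genotype and time in the animal therefore differ together between the tumor groups and cannot be told apart. The labels do not tie a tumor to a clone, and the study's supplement describes the injected knockout cells as a pool of clones. Nothing in the labels says that the clones or tumors came from separate experiments, so p-values measure the spread between these samples only. Total human counts ranged from 21426499 to 49990985 per sample, and 3 counts, taken as the limit that a count of 0 allows, corresponded to 0.0621 to 0.13 CPM (the usual count scaled to the size of the library, after TMM normalization). Such limits cover counting error only.

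Ionotropic glutamate receptors are tetramers. AMPA receptors (GRIA genes) carry the fast current and admit calcium when the GRIA2 subunit is missing, whereas NMDA receptors need GRIN1 together with a GRIN2 or GRIN3 subunit. GABA-A, glycine and nicotinic receptors are pentamers of the same superfamily, GABA-A and glycine receptors conducting chloride and nicotinic receptors cations. Neuroblastoma derives from the sympathoadrenal lineage of the neural crest, and in sympathetic ganglia the CHRNA3, CHRNA5, CHRNB2 and CHRNB4 subunits form the receptors for incoming cholinergic signals. Many subunit genes lie in clusters, such as GABRA4 and GABRB1, which sit head to head at 4p12.

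The regions upstream of 4 genes whose levels differed between Control and sgTWIST1 samples are shown first, because TWIST1 binds to E-boxes, the motif CANNTG. The sequences were taken from RefSeq (GRCh38.p14), start 250 bases before the annotated start, run 5′ to 3′ on the strand of the gene, and carry each E-box in capitals. GABRA4 (chr4:46993582-46993831, minus strand) and GABRB1 (chr4:47031317-47031566, plus strand) are neighbours, GRIA2 (chr4:157219870-157220119, plus strand) had the largest effect in tumors, and CHRNA7 (chr15:32030233-32030482, plus strand) was the gene that was lower in Control tumors. By these coordinates the stretches of GABRA4 and GABRB1 do not adjoin. The RefSeq start used here for GABRB1 differs from the GENCODE start behind its hg19 position given below.
GABRA4: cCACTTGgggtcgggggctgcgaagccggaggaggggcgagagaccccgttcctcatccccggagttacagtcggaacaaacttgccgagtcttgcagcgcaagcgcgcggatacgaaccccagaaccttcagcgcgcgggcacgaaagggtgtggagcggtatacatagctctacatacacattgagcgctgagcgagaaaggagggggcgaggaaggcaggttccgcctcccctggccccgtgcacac
GABRB1: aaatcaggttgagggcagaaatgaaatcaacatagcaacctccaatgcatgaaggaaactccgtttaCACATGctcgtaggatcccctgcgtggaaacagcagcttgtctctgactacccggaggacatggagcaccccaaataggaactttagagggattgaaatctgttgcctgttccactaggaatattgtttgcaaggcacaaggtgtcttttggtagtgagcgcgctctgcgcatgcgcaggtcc
GRIA2: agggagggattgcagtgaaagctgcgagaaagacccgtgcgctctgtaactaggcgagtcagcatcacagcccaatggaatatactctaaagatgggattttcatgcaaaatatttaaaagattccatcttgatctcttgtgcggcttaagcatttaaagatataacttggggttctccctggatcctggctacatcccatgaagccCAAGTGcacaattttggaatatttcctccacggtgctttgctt
CHRNA7: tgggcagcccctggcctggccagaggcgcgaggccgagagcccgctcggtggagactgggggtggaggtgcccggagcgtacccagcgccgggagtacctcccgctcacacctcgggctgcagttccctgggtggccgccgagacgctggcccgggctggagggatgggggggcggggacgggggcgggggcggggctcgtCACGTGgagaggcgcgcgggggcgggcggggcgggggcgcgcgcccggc
Each of the 4 stretches held 1 E-box. It was CACTTG for GABRA4 and CACATG for GABRB1. For GRIA2 it was CAAGTG, and for CHRNA7 it was CACGTG. Of the 66 genes, 46 had an entry in the promoter table, and 33 of these (71.7%) held a CANNTG in the window of 300 bases (250 before and 50 after the start, either strand, the motif being its own reverse complement). All 27305 genes in that table gave 68.9%. The form CATCTG, or CAGATG on the other strand, was in 5 of the 46 (10.9%), against 14.8% of all genes, and CACGTG, one of the CANNTG forms, in 3 (6.52%), against 7.43%. Among the 12 genes with an entry that differed in cells or in tumors, 9 (75.0%) held a CANNTG, 1 (8.33%) the form CATCTG, on either strand, and 1 (8.33%) the form CACGTG. A match describes these letters only and does not show binding.

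TWIST1 RNA, which a frameshift need not remove, was measured first as a check of the labels. It amounted to 54.0, 60.4 and 46.0 CPM in Control cells and 33.9, 28.8 and 18.2 CPM in sgTWIST1 cells (log2(FC), Control relative to sgTWIST1, 1.05 ± 0.20 (SE), adjusted p = 0.00579). In tumors it was at 65.4 to 69.3 CPM in the 4 Control and 14.01 to 37.4 CPM in the 4 sgTWIST1 samples (log2(FC) 1.26 ± 0.24, adjusted p = 0.00543). Control samples thus lay above sgTWIST1 samples without overlap in both settings, and log2(FC) in cells fell to 0.84 without sgTWIST1 clone 3 and to 0.94 without Control clone 2, below the limit of 1 used for a call. The 10 sympathetic and neuroblastoma markers examined (among them PHOX2A, HAND2, GATA2, ISL1, TH, DBH and MYCN) were detected in all 14 samples, with summed levels of 3958 to 7360 CPM in cells and 2560 to 4481 CPM in tumors. Some of these lineage markers were lower in the sgTWIST1 samples. GATA2 ran from 479 to 742 CPM in Control and 116 to 229.6 CPM in sgTWIST1 cells, and from 360.1 to 464 and 14.2 to 84.2 CPM in the respective tumors. HAND2 ran from 284 to 398 and 156 to 206 CPM in cells and from 274 to 389 and 74.2 to 151 CPM in tumors, and DBH from 131 to 218 and 23.3 to 53.8 CPM in cells. The ranges of Control and sgTWIST1 samples did not overlap for these, and their part in the receptor results was not tested. One further measure, added after the data were seen, varied between tumors, and its source was not tested. The summed level of 401 olfactory receptor genes, which belong to the sensory neurons of the nose, ran from 2.19 CPM in Control tumor 3 and 4.20 CPM in sgTWIST1 tumor 4 to 83.6, 85.0 and 125 CPM in sgTWIST1 tumors 2 and 3 and Control tumor 2, with 14.7 to 43.5 CPM in cells. Bulk RNA cannot tell fewer cells of a type from less RNA per cell.

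The receptors of highest level included the ganglionic nicotinic subunits. Per kilobase of the canonical transcript, CHRNA3 ranked first in every group, with 83.1 ± 27.3 CPM per kb (SD, n = 3) in Control cells, 61.9 ± 19.5 (SD, n = 3) in sgTWIST1 cells, 102 ± 22.3 (SD, n = 4) in Control tumors and 138 ± 35.4 (SD, n = 4) in sgTWIST1 tumors. High levels in Control cells were also those of CHRNB2 (23.9 ± 2.66 CPM per kb), GRIA4 (15.4 ± 1.40), CHRNB4 (15.04 ± 2.13), CHRNA5 (11.8 ± 2.16), GRIK2 (10.7 ± 0.625), CHRNA7 (7.59 ± 3.70), GRID1 (7.47 ± 0.971) and GABRA4 (7.40 ± 0.699). The levels of GRIA4 and CHRNB4, and those of CHRNA7, GRID1 and GABRA4, lay within 1 SD of each other in that group. In sgTWIST1 cells GABRA4 was no longer among the first 10, and in sgTWIST1 tumors CHRNA7 moved to the second place (29.1 ± 12.02 CPM per kb). CHRNA3 and CHRNA5 overlap on opposite strands, and since the counting is not stated to use strand, reads of their shared stretch cannot be told apart. GABRQ had no match in the annotation used and has no level per length.

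In all, 36 of the 66 genes reached a mean of 1 CPM in at least 1 group, 28 of them in Control cells, 24 in sgTWIST1 cells, 32 in Control tumors and 27 in sgTWIST1 tumors. Calls below are edgeR quasi-likelihood tests over all genes past a filter on low counts, at a Benjamini-Hochberg adjusted p under 0.05 and a log2(FC) beyond 1 in size. In cells, 52 of the 66 genes passed the filter and 15 were called, 12 of them higher in Control and 3 lower. Among all 21673 genes tested in cells 14.5% were called, 7.95% higher and 6.58% lower in Control. In tumors, 58 genes were tested and 6 called, 5 higher in Control and 1 lower, against 10.1% of all 23955 genes (5.26% higher, 4.84% lower). The share among the receptor genes in tumors was thus near that of all genes. The median log2(FC) of the tested receptor genes was 0.40 in cells and 0.16 in tumors, beside 0.05 and 0.03 for all genes tested. Control and sgTWIST1 values were fully separate for 22 of the 52 genes in cells, as for 40.8% of all genes, and for 10 of the 58 in tumors, against 21.4%. Only 14 of the 66 genes pass the filter of the study's own methods (protein-coding, log2(RPKM) above 1), and with it 6 were called in cells and 3 in tumors. Several calls in cells at low levels hung on single clones. CHRNA2 lost its call without Control clone 3 or sgTWIST1 clone 1 or 2 (log2(FC) 1.27 to 1.70), GRIK5 without Control clone 2 or any one sgTWIST1 clone (0.70 to 1.19), and GRIN2B without Control clone 3 or sgTWIST1 clone 1 or 2 (0.98 to 1.27). GRM7 lost it without any one clone other than Control clone 2 (1.10 to 1.54), and GRM6 without Control clone 1 or sgTWIST1 clone 2 or 3.

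**Figure D1:**
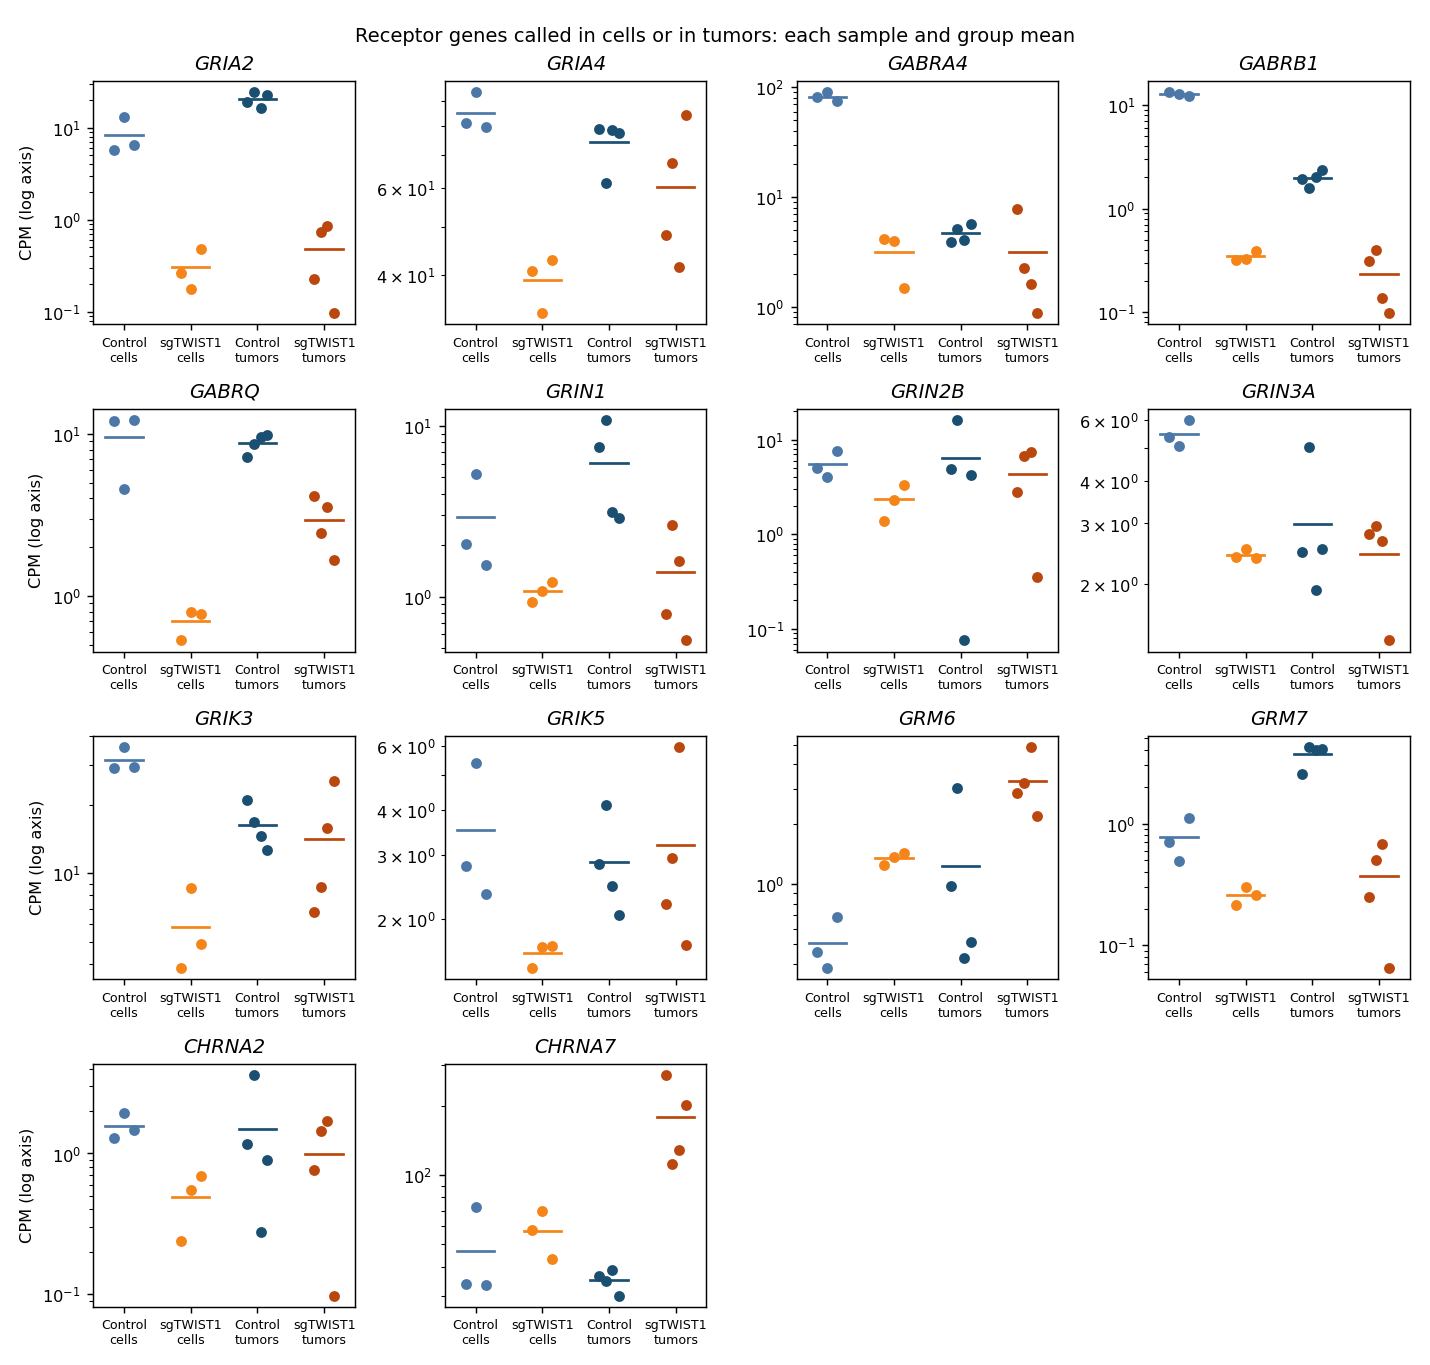
CPM (log axis) of 14 receptor genes called in cells or in tumors, with 1 point per sample and a line at the group mean. GRIA2, GABRB1, GABRQ, GRIN1 and GRM7 were higher in Control in cells and in tumors, and CHRNA7 separated in tumors.

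Among AMPA receptor genes, GRIA2 (ENSG00000120251, hg19 chr4:158125334-158308298), whose edited subunit makes the channel impermeable to calcium, had one of the largest effects. It measured 5.72, 12.9 and 6.52 CPM in Control cells and 0.266, 0.175 and 0.477 CPM in sgTWIST1 cells (log2(FC) 4.63 ± 0.47 (SE), adjusted p = 0.000119). In tumors it measured 19.1, 24.3, 16.4 and 22.4 CPM in Control and 0.228, 0.731, 0.846 and 0.0976 CPM in sgTWIST1 (log2(FC) 5.27 ± 0.53, adjusted p = 0.000106). Every Control sample was at least an order of magnitude above every sgTWIST1 sample of its setting, and the knockout values correspond to 7 to 11 reads in cells and 3 to 26 in tumors. GRIA4 (chr11:105480262-105852817), the AMPA subunit of highest level, fell from 81.1, 93.7 and 79.7 CPM in Control cells to 40.7, 33.5 and 42.8 CPM in sgTWIST1 cells (log2(FC) 1.17 ± 0.15, adjusted p = 0.000668). In tumors its groups overlapped, with 78.9, 61.4, 78.6 and 77.6 CPM in Control and 48.1, 67.4, 41.4 and 84.3 CPM in sgTWIST1, and it was not called (log2(FC) 0.28 ± 0.21, adjusted p = 0.473). GRIA1 and GRIA3 had means under 1 CPM in every group. The summed level of the 4 AMPA genes was 94.2 ± 11.3 CPM in Control cells and 40.1 ± 4.81 CPM in sgTWIST1 cells, and 96.0 ± 4.98 and 62.1 ± 18.5 CPM in the respective tumors.

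Of the kainate receptor genes, which encode slower glutamate-gated channels that also act presynaptically, GRIK3 (chr1:37261128-37500116) and GRIK5 (chr19:42502473-42574358) were called in cells. GRIK3 stood at 29.1, 35.8 and 29.4 CPM in Control cells and at 3.83, 8.65 and 4.90 CPM in sgTWIST1 cells (log2(FC) 2.47 ± 0.30, adjusted p = 0.000469). In tumors the groups overlapped, with 21.0, 16.7, 14.5 and 12.6 CPM in Control and 6.79, 8.69, 15.8 and 25.5 CPM in sgTWIST1 (log2(FC) 0.18 ± 0.37, adjusted p = 0.865). GRIK5, which needs another kainate subunit to form a channel, measured 2.81, 5.38 and 2.35 CPM in Control and 1.46, 1.68 and 1.69 CPM in sgTWIST1 cells (log2(FC) 1.14 ± 0.35, adjusted p = 0.0373), and overlapped in tumors (2.05 to 4.12 CPM in Control, 1.69 to 5.96 in sgTWIST1). GRIK2, the kainate subunit of highest level, ranged from 45.1 to 65.4 CPM over the cell samples and from 39.1 to 59.6 CPM over the tumors, with groups that overlapped in both. GRIK4 was lower in Control tumors, with 4.77, 5.81, 5.21 and 5.26 CPM against 9.15, 7.88, 6.80 and 10.3 CPM, by less than the limit for a call (log2(FC) −0.71 ± 0.17, edgeR adjusted p = 0.0181). GRIK1 had a mean under 1 CPM in every group. GRID1, a delta subunit that binds cerebellins rather than acting as a typical glutamate-gated channel, ranged from 40.4 to 56.2 CPM in cells and 32.1 to 79.4 CPM in tumors and was not called in either.

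NMDA receptor genes were at a lower level. GRIN1 (chr9:140032798-140063208), the obligatory subunit, was called in both settings. It measured 2.02, 5.26 and 1.53 CPM in Control and 0.932, 1.08 and 1.21 CPM in sgTWIST1 cells (log2(FC) 1.44 ± 0.46, adjusted p = 0.0424). In tumors it measured 7.53, 10.9, 3.12 and 2.87 CPM in Control and 0.787, 2.64, 1.62 and 0.553 CPM in sgTWIST1 (log2(FC) 2.04 ± 0.61, adjusted p = 0.0408). Both adjusted p-values lay close to the threshold, and the call was lost in tumors without Control tumor 1 or 2 or sgTWIST1 tumor 1, 3 or 4, and in cells without Control clone 2 or any one sgTWIST1 clone, with log2(FC) between 1.62 and 2.56 in tumors and between 0.74 and 1.73 in cells. GRIN2B (chr12:13590876-14134936), the subunit of the fetal brain, stood at 5.07, 4.00 and 7.63 CPM in Control and 1.38, 2.30 and 3.34 CPM in sgTWIST1 cells (log2(FC) 1.29 ± 0.40, adjusted p = 0.0417). GRIN3A (chr9:104331634-104500929), which lowers calcium entry, stood at 5.37, 5.06 and 6.03 against 2.40, 2.53 and 2.38 CPM (log2(FC) 1.21 ± 0.24, adjusted p = 0.00567). Both overlapped between groups in tumors and were not called there. In tumors GRIN2B ran from 0.0755 to 16.3 CPM in Control and from 0.358 to 7.41 CPM in sgTWIST1, with its lowest and highest values in the tumors of lowest and highest olfactory receptor counts among the Control ones, whose part in the result was not tested. GRIN3A overlaps PPP3R2 on the same strand. GRIN2C (0.201 to 6.12 CPM over the 14 samples) and GRIN2D (0.428 to 3.85 CPM) reached a mean of 1 CPM in some group without a call, and GRIN3B did not reach it.

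GRIN2A (chr16:9847261-10276785), the subunit that replaces GRIN2B as neurons mature, is named here after its values were seen. It stood between 0.526 and 0.891 CPM in all 6 cell samples. Its level was 0.836, 3.99, 0.0252 and 0.609 CPM in the tumors of Control and 4.27, 8.47, 16.2 and 12.5 CPM in those of sgTWIST1. The tumor groups did not overlap, yet the gene missed the threshold (log2(FC) −2.91 ± 0.93, edgeR adjusted p = 0.0546). It passed under 8 of 15 other settings, among them without Control tumor 2 (log2(FC) −4.27), the tumor of highest olfactory receptor counts. In sgTWIST1 tumors relative to sgTWIST1 cells it was called (log2(FC) 3.59 ± 0.90, adjusted p = 0.0121).

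The metabotropic glutamate receptors act through G proteins. GRM7 (chr3:6811688-7783220), a presynaptic receptor of low glutamate affinity, was higher in Control in both settings. It measured 0.702, 0.497 and 1.11 CPM in Control and 0.213, 0.300 and 0.260 CPM in sgTWIST1 cells (log2(FC) 1.44 ± 0.47, adjusted p = 0.0316). In tumors it measured 2.54, 4.23, 4.05 and 4.09 CPM in Control and 0.248, 0.506, 0.677 and 0.0650 CPM in sgTWIST1 (log2(FC) 3.10 ± 0.60, adjusted p = 0.00417). The tumor groups lay far apart, and the Control tumors also lay above Control cells (log2(FC) 2.20 ± 0.54, adjusted p = 0.0118). GRM6 (chr5:178404588-178423207), known from retinal bipolar cells, was lower in Control cells, at 0.459, 0.380 and 0.684 CPM against 1.25, 1.38 and 1.43 CPM (log2(FC) −1.26 ± 0.37, adjusted p = 0.0252). In tumors it had the same sign without a call (log2(FC) −1.39 ± 0.63, adjusted p = 0.165). GRM2 (1.11 to 4.16 CPM over the 14 samples), GRM4 (0.692 to 7.10 CPM) and GRM8 (0.0976 to 2.47 CPM) reached a mean of 1 CPM in some group and were not called, and GRM3 and GRM5 did not reach it.

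The GABA-A receptor genes held large effects in cells. GABRB1 (chr4:46995740-47428464), a beta subunit, measured 13.4, 12.8 and 12.3 CPM in Control and 0.319, 0.325 and 0.390 CPM in sgTWIST1 cells (log2(FC) 5.07 ± 0.26, adjusted p = 2.58e-06). In tumors it measured 1.95, 1.59, 2.01 and 2.34 CPM in Control and 0.311, 0.394, 0.135 and 0.0976 CPM in sgTWIST1 (log2(FC) 2.76 ± 0.52, adjusted p = 0.00303). The groups were separate in both settings, and the Control level itself was lower in tumors than in cells (log2(FC) −2.66 ± 0.32, adjusted p = 5.47e-05).

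GABRA4 (chr4:46920917-46995598), an alpha subunit of extrasynaptic receptors that lies next to GABRB1 on the other strand, measured 81.6, 90.6 and 75.1 CPM in Control cells and 4.13, 3.95 and 1.47 CPM in sgTWIST1 cells (log2(FC) 4.71 ± 0.32, adjusted p = 1.53e-05). In tumors the level in Control was 3.93, 5.07, 4.08 and 5.65 CPM, next to 7.85, 2.25, 1.62 and 0.878 CPM in sgTWIST1, and the gene was not called (log2(FC) 0.54 ± 0.57, adjusted p = 0.652). Control tumors thus lay near the level of sgTWIST1 cells for this gene, at log2(FC) −4.12 ± 0.54 relative to Control cells (adjusted p = 0.000128). Without sgTWIST1 tumor 1, which held the highest of the 8 tumor values, the difference between tumors was called (log2(FC) 1.52). The other genes of the 4p12 cluster, GABRA2 and GABRG1, had means under 1 CPM in every group.

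GABRQ (ENSG00000147402), encoding the theta subunit, measured 12.1, 4.59 and 12.2 CPM in Control and 0.532, 0.800 and 0.780 CPM in sgTWIST1 cells (log2(FC) 3.74 ± 0.46, adjusted p = 0.000400). In tumors it measured 7.22, 8.62, 9.51 and 9.86 CPM in Control and 4.12, 2.45, 3.52 and 1.66 CPM in sgTWIST1 (log2(FC) 1.53 ± 0.29, adjusted p = 0.00461). Control cells and Control tumors did not differ by the test (log2(FC) −0.13 ± 0.34, adjusted p = 0.895), whereas sgTWIST1 tumors lay above sgTWIST1 cells (log2(FC) 1.99 ± 0.39, adjusted p = 0.00230).

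Of the GABA-A genes of lower level, GABRG3 (0.151 to 1.52 CPM) and GABRP (0.101 to 1.56 CPM) reached a mean of 1 CPM in some group without a call between Control and sgTWIST1, and 11 of the 19 GABA-A genes did not reach it in any group. None of the 5 glycine receptor genes reached a mean of 1 CPM in any group. Only GLRA3 was tested in cells and GLRA1, GLRA2 and GLRA3 in tumors, without a call, and GLRB, the beta subunit that anchors the receptor, had 0 to 8 counts per sample.

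Among nicotinic receptor genes the one called in tumors was CHRNA7 (chr15:32215641-32465219), which forms the homomeric receptor of high calcium permeability. It measured 36.6, 34.9, 38.9 and 30.0 CPM in Control tumors and 273, 112, 129 and 202 CPM in sgTWIST1 tumors (log2(FC) −2.36 ± 0.26, adjusted p = 0.000243). All sgTWIST1 tumors lay well above the Control tumors. In cells the groups overlapped, at 33.6, 72.9 and 33.5 CPM in Control and 57.9, 69.98 and 43.1 CPM in sgTWIST1 (log2(FC) −0.24 ± 0.29, adjusted p = 0.589), and sgTWIST1 tumors lay above sgTWIST1 cells (log2(FC) 1.65 ± 0.34, adjusted p = 0.00394). A partial duplicate, CHRFAM7A, shares most of its 3′ exons with CHRNA7, so reads could be assigned to either. CHRFAM7A had 70 to 116 counts in Control and 245 to 795 counts in sgTWIST1 tumors (log2(FC) −2.19 ± 0.30, adjusted p = 0.000835), few beside the 3807 to 13167 counts of CHRNA7 in sgTWIST1 tumors.

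CHRNA2 (chr8:27317273-27337400) was the one nicotinic gene called in cells, at 1.296, 1.93 and 1.47 CPM in Control and 0.240, 0.550 and 0.693 CPM in sgTWIST1 (log2(FC) 1.62 ± 0.44, adjusted p = 0.0197), and its tumor groups overlapped. CHRNB2 and CHRNB4, ganglionic beta subunits, were lower in Control cells below the fold limit, at 151, 147 and 122 against 252, 188 and 188 CPM for CHRNB2 (log2(FC) −0.52 ± 0.16) and 42.0, 42.5 and 32.7 against 74.0, 68.1 and 61.4 CPM for CHRNB4 (log2(FC) −0.74 ± 0.15). CHRNA3 ran from 133 to 345 CPM over cells and from 232 to 546 CPM over tumors and CHRNA5 from 34.9 to 52.4 and from 38.8 to 75.9 CPM, and neither was called. The summed level of the 11 neuronal nicotinic genes was 523 ± 93.7 CPM in Control cells, 567 ± 105 in sgTWIST1 cells, 527 ± 89.3 in Control tumors and 817 ± 217 in sgTWIST1 tumors. The neuronal subunit CHRNA4 ran from 0.0503 to 5.07 CPM. Of the muscle nicotinic genes, CHRNB1 (1.31 to 4.09 CPM) and CHRNG, the fetal subunit (0.585 to 2.23 CPM), reached a mean of 1 CPM, and none was called. CHRNA10 (0.319 to 2.03 CPM) overlaps NUP98 on the same strand, so its reads cannot be assigned with certainty.

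**Figure D2:**
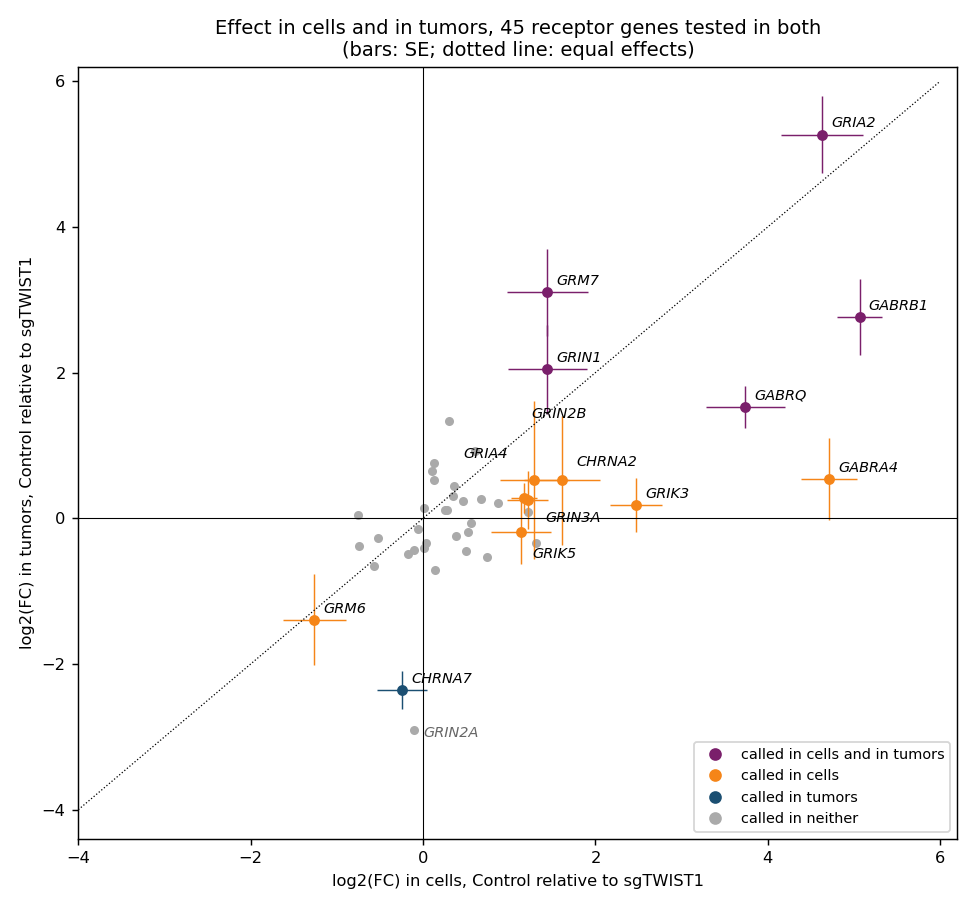
log2(FC) of Control relative to sgTWIST1 in cells (x) and tumors (y) for 45 receptor genes tested in both, with the SE as bars for called genes. GRIA2 lies near the line of equal effects, and GABRA4 and GRIK3 near 0 in tumors.

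The question whether the effect differed between cells and tumors was tested directly, as the effect in tumors minus that in cells, for 63 of the 66 genes. Of these, 7 were called, against 2.41% of all 28183 genes tested (1.27% positive, 1.14% negative), 5 of them negative. The difference was negative for GABRA4 (−4.12 ± 0.75, adjusted p = 0.00607), GABRB1 (−2.24 ± 0.50, adjusted p = 0.0273), GRIK3 (−2.23 ± 0.54, adjusted p = 0.0370), GABRQ (−2.11 ± 0.51, adjusted p = 0.0295) and CHRNA7 (−2.06 ± 0.46, adjusted p = 0.0228). The call for GABRA4 held without any one sample. CHRNA7 lost its call without Control clone 2 or sgTWIST1 clone 1 or 3. GABRB1 lost it without any one clone, Control tumor 1 or sgTWIST1 tumor 1 or 2, and GABRQ without any one clone but Control clone 2, Control tumor 1 or sgTWIST1 tumor 1 or 3. GRIK3 lost it without Control clone 2 or 3, sgTWIST1 clone 1 or 3, Control tumor 2 or 4 or sgTWIST1 tumor 3. Without sgTWIST1 clone 1 or 3, 3 genes stayed called, GABRA4 among them. GRIA2 was not called for a difference (0.69 ± 0.74, adjusted p = 0.905), nor were GRM7 (1.75 ± 0.77, adjusted p = 0.372) and GRIN1 (0.67 ± 0.82, adjusted p = 0.906).

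Tumors were also compared with the cells of their genotype. Growth in culture or in the animal, RNA input and, by the labels, extraction kit (RNeasy or miRNeasy) differ together between these samples and cannot be told apart. Control tumors differed from Control cells in 5 of 63 receptor genes, against 8.69% of all genes (5.07% higher and 3.62% lower in tumors), of which 4 were lower in tumors, among them GABRA4, GABRB1 and GABRG3 (log2(FC) −1.73 ± 0.57), and GRM7 was higher. The 9 genes called between sgTWIST1 tumors and sgTWIST1 cells, against 9.97% of all genes (5.51% higher and 4.46% lower), were 7 of higher level in tumors and 2 of lower. The higher ones were GRIN2A, GABRP (2.03 ± 0.71), GABRQ, CHRNA7, GRIK4 (1.47 ± 0.43), GRIK3 (1.28 ± 0.39) and CHRNA3 (1.15 ± 0.29). GABRP lost its call without any sgTWIST1 clone or sgTWIST1 tumor 1, 2 or 3. GRIN2A lost it without sgTWIST1 clone 1 or 2, and GRIK4 without these or sgTWIST1 tumor 1. GRIK3 lost it without sgTWIST1 clone 1 or 3 or tumor 3 or 4, and CHRNA3 without sgTWIST1 clone 2 or 3 or tumor 1. Between Control tumors and Control cells, GABRG3 lost its call without any single clone, Control tumor 1, 3 or 4 or sgTWIST1 tumor 1. GRM7 lost it there without Control clone 1 or 2. Both comparisons used the same cell and tumor samples as those above and are not independent of them.

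The 30 receptor genes under 1 CPM in every group were not called in any comparison at the main settings. Other settings called some of them, such as CHRNA6 in cells with DESeq2 and GABRR3 in tumors as given below. Their summed level was 8.80 to 12.1 CPM in Control cells and 5.03 to 8.53 CPM in sgTWIST1 cells. In tumors it ran from 2.77 CPM in Control tumor 3 to 36.3 CPM in Control tumor 2, and from 2.70 CPM in sgTWIST1 tumor 4 to 17.7 CPM in sgTWIST1 tumors 2 and 3. Control tumor 2 was also the highest, and Control tumor 3 and sgTWIST1 tumor 4 the lowest, by olfactory receptor counts among the tumors. Among the Control tumors alone, Control tumor 2 held the highest value for 29 of the 30 genes. With the olfactory receptor counts as a covariate, which was added after the data were seen, 11 of the 15 genes called in cells stayed called and GRIN1, GRIK5, GRIN2B and GRM7 did not, while in tumors all 6 stayed called and 6 others were added, among them GRIN2A, GABRR3, GRM6 and GRM8. With the tumors over 50 CPM of these counts left out, all 6 also stayed called and GRIN2A and GRM6 were added. Whether these counts have a part in the values of single genes was not tested further.

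**Figure D3:**
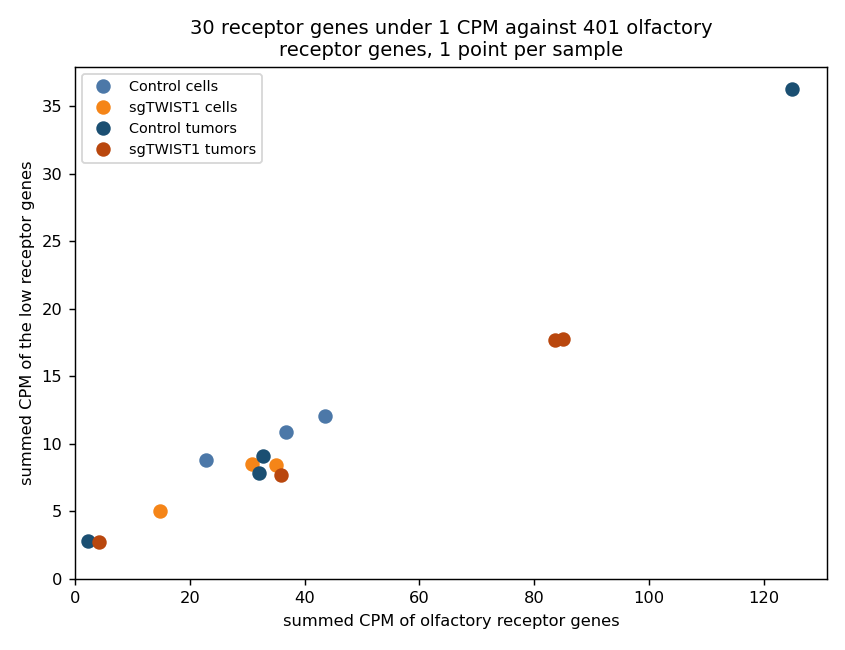
Summed CPM of 401 olfactory receptor genes (x) and of the 30 receptor genes under 1 CPM (y), with 1 point per sample. Control tumor 2 stands at 125 and 36.3 CPM, and Control tumor 3 and sgTWIST1 tumor 4 lie nearest to 0.

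The tumors also hold mouse cells, and reads matching both species had been kept with the human counts by the authors. All 66 genes had a murine counterpart by symbol in the murine table, which held 577479 to 7248286 counts per tumor. Only 5 of them exceeded 100 counts over the 8 tumors. They were Gria3 (461 counts), Gabra3 (369), Grin2a (181), Chrnb1 (172) and Grik5 (132). Murine Gria2 had 51 counts beside 3037 human ones over the 8 tumors. In sgTWIST1 tumors it had 0 to 29 counts, where the human gene had only 3 to 26. Murine Gabrb1 had 0 to 44 counts in sgTWIST1 tumors, where the human gene had 3 to 15. In a single tumor the murine counts reached 53.7% of both species for Gria2 and 91.7% for Gabrb1. Whether host reads are among the human counts of these genes was not tested. Murine Grin2a had 10 to 78 counts in Control tumors, where the human gene had 1 to 118. In sgTWIST1 tumors the murine gene had 2 to 29 counts and the human gene 206 to 479. The murine counts of Grin2a reached 96.7% of both species in a single tumor. Whether host reads are among the human GRIN2A counts was not tested either. Of the 8 murine genes tested none was called by edgeR (0 also at an unadjusted p under 0.05 and 0 by DESeq2), as none of all 12758 murine genes was (0.0%, with 657 at an unadjusted p under 0.05 and 54 called by DESeq2). In Control tumor samples the murine skeletal muscle markers summed to 117 to 4023 CPM of the murine counts and in sgTWIST1 tumors to 48.2 to 118 CPM, and the murine adrenal cortex markers to 6.98 to 21.5 CPM and 5.82 to 1251 CPM. Their part in the murine receptor counts was not tested.

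Genes that work with these receptors were examined from a list of 88 genes in the table. The list was chosen with earlier results of these data known, so its shares of called genes are not an independent result. In cells 20 of the 79 tested were called, 12 higher and 8 lower in Control (25.3%, against 14.5% of all genes), and in tumors 16 of 81, 13 higher and 3 lower (19.8%, against 10.1%). The median log2(FC) of the list was 0.38 in cells and 0.09 in tumors.

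Of the auxiliary subunits and chaperones, 3 of 19 tested were higher and 2 lower in Control cells. CACNG4, a TARP that traffics AMPA receptors, had 111 ± 34.9 CPM in Control cells but 12.8 ± 1.22 CPM in knockout cells (log2(FC) 3.15 ± 0.22, adjusted p = 1.74e-05), whereas CACNG2, the TARP known as stargazin, rose from 0.404 ± 0.165 to 4.46 ± 0.806 CPM (log2(FC) −3.22 ± 0.36, adjusted p = 0.000217). CNIH2, another AMPA receptor partner, was higher in Control in cells (log2(FC) 2.19 ± 0.42) and in tumors (8.60 ± 0.581 against 1.305 ± 0.510 CPM, log2(FC) 2.64 ± 0.28, adjusted p = 0.000176), where it was the one gene called of 21. TMEM35, a chaperone of nicotinic receptors, was higher (log2(FC) 2.87 ± 0.60) and LYNX1, a membrane-bound inhibitor of them, lower in Control cells (log2(FC) −1.35 ± 0.32).

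Of the scaffolds and synaptic organizers, 4 of 29 were higher and 2 lower in Control cells, and 6 of 29 higher and none lower in tumors. HOMER1, which ties group I metabotropic receptors to the postsynaptic density, measured 11.1 ± 1.28 CPM in Control and 1.08 ± 0.129 CPM in sgTWIST1 cells and 17.2 ± 2.03 and 2.01 ± 0.368 CPM in tumors (log2(FC) 3.36 ± 0.25 and 3.03 ± 0.20, adjusted p = 2e-05 and 1.36e-05). LRP4, the agrin receptor of the neuromuscular junction, was higher in Control in cells (log2(FC) 3.01 ± 0.56) and tumors (log2(FC) 4.02 ± 0.46, adjusted p = 0.000250), and GRIP1, which binds the GRIA2 tail, in tumors (log2(FC) 2.41 ± 0.65). NRXN2, a presynaptic neurexin, was lower in Control cells, at 4.19 ± 1.67 against 48.5 ± 0.935 CPM (log2(FC) −3.47 ± 0.25). SHANK1, a postsynaptic scaffold, was lower in Control cells (log2(FC) −1.22 ± 0.29).

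Of the genes that supply or remove the transmitters, 3 of 24 were higher and 3 lower in Control cells, and 4 higher and 3 lower in tumors. ABAT, which breaks down GABA, measured 70.7 ± 21.3 CPM in Control and 3.09 ± 0.594 CPM in sgTWIST1 cells (log2(FC) 4.53 ± 0.27, adjusted p = 6.9e-06) and 73.5 ± 18.2 against 5.46 ± 1.33 CPM in tumors (log2(FC) 3.71 ± 0.25, adjusted p = 1.36e-05). BCHE, which hydrolyses choline esters, was also higher in Control in both (log2(FC) 3.84 ± 0.21 in cells and 2.88 ± 0.29 in tumors). SLC18A3, the vesicular acetylcholine transporter, was higher in Control in cells (log2(FC) 1.27 ± 0.27) and in tumors (35.3 ± 13.4 against 4.89 ± 1.61 CPM, log2(FC) 2.81 ± 0.31, adjusted p = 0.00022), and CHAT, which makes acetylcholine, in Control tumors (log2(FC) 3.50 ± 0.32, adjusted p = 5.88e-05). SLC1A3, a glutamate uptake transporter of glia, was lower in Control, at 0.727 ± 0.339 against 42.7 ± 11.9 CPM in cells (log2(FC) −5.71 ± 0.35, adjusted p = 6.9e-06) and 0.659 ± 0.606 against 16.1 ± 9.002 CPM in tumors (log2(FC) −4.54 ± 0.70, adjusted p = 0.00145). SLC32A1, which loads GABA and glycine into vesicles, and SLC1A4, a neutral amino acid transporter, were lower in Control in both settings (log2(FC) −1.88 and −1.75 in cells, −2.09 and −1.02 in tumors).

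Among the other receptors for these transmitters, 2 of 7 were higher and 1 lower in Control cells, and 2 higher in tumors. The muscarinic receptor CHRM2 measured 0.998 ± 0.162 CPM in Control and 44.4 ± 7.93 CPM in sgTWIST1 cells (log2(FC) −5.33 ± 0.23, adjusted p = 1.08e-06), while CHRM3, another muscarinic receptor, was higher in Control in cells (27.1 ± 8.84 against 7.51 ± 0.963 CPM, log2(FC) 1.89 ± 0.23) and tumors (132 ± 20.2 against 13.5 ± 9.53 CPM, log2(FC) 3.25 ± 0.45, adjusted p = 0.000879). CHRM1 was higher in Control cells (log2(FC) 1.42 ± 0.42) and GABBR2, a subunit of the metabotropic GABA receptor, in Control tumors (log2(FC) 2.17 ± 0.63, adjusted p = 0.0328).

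The genes around some receptor genes had shifted medians too. Within 5 Mb of the start of GRIN2B the 83 other genes tested in cells had a median log2(FC) of 0.85, and 27 of them were called, all higher in Control, next to 1.29 for GRIN2B itself, and in tumors the median was 1.00 with 32 of 98 called higher in Control. Around GRIN1 the median was 0.55 in cells (140 genes) and 0.60 in tumors (146 genes), around GRIA2 0.64 (37 genes) and 0.55 (43 genes), and around GRIA4 0.52 (51 genes) in both. It was 0.25 in cells and −0.19 in tumors around GABRB1, −0.05 in tumors around CHRNA7 and −0.20 in cells around GRIK3. The part of such regional shifts in the effects of single genes was not tested.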

How the data were processed

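Total RNA of cells and tumors had been depleted of ribosomal RNA and sequenced by the authors as 100-nucleotide single-end reads. Per the submitters' processing notes, STAR 2.5.2b, RSEM 1.3.0 and DESeq2 1.26.0 were used with the builds hg19 and mm10. Reads of tumors were mapped to both genomes together, and reads matching both were kept as human. The deposited values are expected counts per gene, of which 15.2% were not whole in the human table (tolerance 0.001). They were rounded, and the batches of a clone were summed.

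The tests were made with edgeR 4.0.16 in R 4.3.3, using the quasi-likelihood test on genes kept by filterByExpr, TMM normalization and a prior count of 2. Genes were called at a Benjamini-Hochberg adjusted p under 0.05 over all genes tested with a log2(FC) beyond 1 in size (0.5 for murine genes, as in the study). Gene lengths and hg19 positions came from a GENCODE annotation lifted to GRCh37, which matched 65 of the 66 genes. Values are given in every sample for called genes, and levels for genes with a mean of at least 1 CPM in any group. Pathway genes named were up to 3 of highest and 3 of lowest log2(FC) per list. The alternatives were DESeq2 1.42.0, its size factors, other filters, 1 fit of all 4 groups, the replicate number as a block, batches kept apart, batch 1 alone, samples left out in turn, and, added after the data were seen, the olfactory receptor counts. On simulated counts for the genes tested in cells, with 200 genes changed by 2 on the log2 scale, edgeR recovered 200 with 8 false calls. For the interaction it recovered 194 with 5 false calls. The changed genes were drawn from those of higher counts, and every gene was given the same spread between samples. Recovery of genes with few counts, as many receptor genes have, was therefore not tested. The receptor genes and the lists were chosen with earlier results of these data known. Some genes included in the counts are not reported here by name.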

Additional observations from a re-analysis of the deposited data

Results flagged for a closer look

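The gap between Control and sgTWIST1 samples was not the same in tumors as in cells for 7 receptor genes, 5 of them given here. They were called by an interaction test across all genes (edgeR, adjusted p values given above). On the log2 scale, tumors minus cells, the difference was −4.12 for GABRA4, −2.24 for GABRB1, −2.23 for GRIK3, −2.11 for GABRQ and −2.06 for CHRNA7.

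In 72 groups of 4 tumors examined for a sample far from the others (Dixon's test, which chance passes in about 1 of 20 groups), 7 values stood apart. In 6 cases the sample was Control tumor 2, which also held the highest olfactory receptor counts. It was highest for CHRNA10 with 2.03 CPM (other Control tumors 0.836 to 1.03), for CHRNA4 with 5.07 CPM (0.0503 to 0.864), for CHRNG with 1.82 CPM (0.585 to 0.682), for GABRG3 with 0.947 CPM (0.151 to 0.268) and for GRIN2D with 3.85 CPM (0.428 to 0.584). It was lowest for GRIA4 with 61.4 CPM (77.6 to 78.9). Control tumor 1 was lowest for GRM7 with 2.54 CPM (4.05 to 4.23). The part of the olfactory receptor counts in these values was not tested.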

How the results depend on the processing

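No value reversed its sign among those called. For single genes, 996 of the alternative values kept their side of the threshold, 41 fell short of it and 18 passed it. In cells, 9 receptor genes were called in 1 fit of all 4 groups and 6 with the study's filter, which leaves 14 genes, and 10 to 14 without 1 clone. GRIK5, GRIN1 and GRIN2B lost their call with batch 1 alone. In tumors, 12 were called with the olfactory receptor counts as a covariate, 3 with the study's filter and 5 to 7 without 1 tumor. The difference between tumors and cells was called for 3 to 7 genes without 1 sample, with 3 without sgTWIST1 clone 1 or 3 and 4 without Control clone 2 or 3. Control tumors against Control cells gave 8 with DESeq2 and 4 to 7 without 1 sample. The sgTWIST1 tumors against sgTWIST1 cells gave 4 with the study's filter and 5 to 11 without 1 sample, with 5 without sgTWIST1 clone 1. With no filter on low counts, 2 murine genes were called. TWIST1 in cells was at 0.99 in 1 fit of all 4 groups and at 0.84 to 1.19 without 1 clone. The cause of these changes was not tested beyond the smaller number of genes or samples.

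With the replicate block, 15 genes were called in cells (14 of them shared), 6 in tumors and 3 of 7 for the difference between them, where GABRA4 and CHRNA7 kept the call and GABRB1, GABRQ and GRIK3 lost it. The numbers were not taken as a pairing, since same-numbered samples correlated at 0.0952, 0.0822 and 0.158 in cells and at −0.0153, 0.676, −0.557 and 0.0814 in tumors. In cells every sample correlated best with its own number, which is a hint from the data and not the design. Depth limits the genes under 1 CPM, where 3 counts correspond to 0.0621 to 0.13 CPM.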
